A study of Bos taurus with 40 samples.

Results

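TUG1 (taurine upregulated gene 1) is a long noncoding RNA, and it was followed here through every bovine RNA library of a study on single oocytes. It is 1 of 59051 rows and was found by its symbol in all 4 count tables. It was taken up because its level in ooplasm biopsies lay below that in whole oocytes, so that contrast is described without a test. The remaining contrasts were not the reason for that choice and were tested, although TUG1 was chosen with earlier results of these data known.

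The study followed oocytes after maturation in vitro and grouped them by whether the embryo became a blastocyst or stopped at cleavage. RNA was sequenced from ooplasm biopsies, which are small samples of oocyte cytoplasm, from granulosa cells, which line the follicle, and from cumulus cells, which surround the oocyte. Each of these 3 sample types had 4 libraries in the blastocyst group and 4 in the cleavage group. A further 4 biopsies carried the numbers of 4 whole oocytes (2, 3, 6 and 16). Fate biopsies and granulosa cells share labels such as B20 that name 1 follicle, and the labels give "Diploid" as the genotype of all samples and no treatment beyond the sample type. The sources used here do not give breed or age. They also do not state whether samples of a group were from different animals, and the p-values cover the spread among these libraries alone, which may be technical.

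TUG1 is transcribed next to and away from MORC2 in mammals and was first described in the developing retina of mice. The RNA is found in both nucleus and cytoplasm of many human and mouse cells, and in human cells it has been reported to bind the Polycomb repressive complex that methylates histone H3. Loss of the locus in mice leaves males sterile. Part of the transcript holds an open reading frame, and the RefSeq gene table lists TUG1 as protein coding beside an overlapping lncRNA entry, LOC100848149, that has TUG1 as a synonym. That entry has no row of its own in the count tables, so 1 row carries the name. Ensembl or NONCODE rows, which bear no symbol, may also overlap the locus, so this row need not hold all of its counts.

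Libraries held 7964591 to 23790073 counts, and TUG1 had 289 to 6050 counts in each. In library B20 of blastocyst-group granulosa cells, the lowest, the count of 289 had an exact 95% Poisson interval of 257 to 324. B20 also stood apart in composition: its 10 most abundant rows took 1.78% of its counts, against 5.84 to 10.02% in the other blastocyst-group granulosa libraries and 10.96 to 13.7% in the cleavage group. Of 45 marker genes listed for the cell types of the follicle, 1 had a row under its symbol, the oocyte linker histone H1FOO. H1FOO stood at 736 to 1312 CPM (counts per 1000000 counts of a library) in blastocyst-group biopsies, 720 to 1529 CPM in cleavage-group biopsies, 500.3 to 1426 CPM in matched biopsies and 456 to 991 CPM in whole oocytes, against 0 to 0.108 CPM in cumulus cells, as the labels have it. Granulosa libraries lay between these, at 5.80 to 22.3 CPM in the blastocyst group and 0.302 to 6.74 CPM in the cleavage group. Unless stated otherwise, CPM here are scaled by TMM (trimmed mean of M values) within a count table, and in bulk samples such as these fewer cells of a type and less RNA per cell cannot be told apart.

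In the matched set, TUG1 was lower in each biopsy than in the whole oocyte of the same number. Biopsies 2, 3, 6 and 16 held 35.0, 35.1, 35.3 and 19.9 CPM, against 69.9, 63.6, 87.7 and 65.4 CPM in oocytes 2, 3, 6 and 16. The 2 sets of values do not overlap, biopsies 2, 3 and 6 lie together, and biopsy 16 lies apart below them. The biopsies therefore showed 50.1%, 55.2%, 40.3% and 30.5% of the level of the oocyte sharing their number, for numbers 2, 3, 6 and 16, with a mean ratio of 0.440 ± 0.109 (SD, n = 4 pairs). Group means were 31.4 ± 7.61 CPM in biopsies and 71.7 ± 11.01 CPM in oocytes (SD, n = 4 each), and the edgeR fit gave a log2 difference of -1.19 (SE 0.29). These values chose TUG1 and support nothing further.

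The same difference can be set against the other rows of the table, again as a description. Of the 8676 rows with at least 10 CPM on average, 0.726% had a lower fitted log2 difference than TUG1, and of all 18540 fitted rows 4.54% did. Pair by pair, the share of abundant rows with a lower biopsy-to-oocyte ratio was 5.08% for number 2, 21.7% for number 3, 5.41% for number 6 and 0.367% for number 16. The pairs therefore differed in how far TUG1 stood from the bulk of rows, with number 3 the least apart. Scaled by library totals alone, the biopsy-to-oocyte ratio was 0.457, 0.769, 0.493 and 0.299 for numbers 2, 3, 6 and 16, below 1 in every pair. Between TMM and library totals the median of all rows moved from -0.03 to 0.11, and relative to that median TUG1 stood at -1.17 and -1.15. Biopsies had fewer rows detected at 5 counts or more than oocytes, at 19455 to 20232 against 20807 to 23114, and the part of this in the TUG1 values was not tested.

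**Figure D1:**
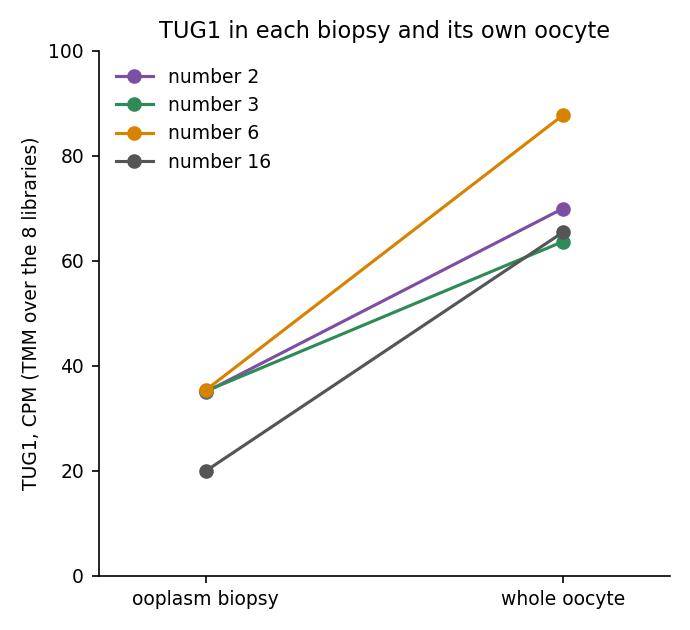
TUG1 level in CPM (TMM over the 8 libraries of the matched set) in each ooplasm biopsy and in the whole oocyte of the same number, joined by a line. Every line climbs to the right, from 19.9 to 35.3 CPM in biopsies against 63.6 to 87.7 CPM in oocytes.

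The fate biopsies ask whether TUG1 in the ooplasm differs between oocytes that went on to blastocysts and those that stopped at cleavage. In blastocyst-group biopsies B20, B21, D24 and D27 it stood at 65.9, 49.95, 60.03 and 66.03 CPM, against 63.7, 30.1, 41.8 and 30.6 CPM in cleavage-group biopsies B14, B23, D10 and D29. The cleavage-group biopsies other than B14 lie below every blastocyst-group biopsy, whereas B14 lies among them. Means were 60.5 ± 7.57 CPM in the blastocyst group and 41.5 ± 15.8 CPM in the cleavage group (SD, n = 4 each). The log2 fold change was 0.54 (SE 0.31) and did not pass (edgeR quasi-likelihood adjusted p = 0.9999; exact two-sided permutation p = 0.0857, where 0.0286 is the smallest possible). In this comparison edgeR called 0 of 21174 rows (0%), with 1017 at an unadjusted p under 0.05, and the DESeq2 Wald test called 182, without TUG1 (adjusted p = 0.698). Leaving out cleavage-group biopsy B14 moved the log2 fold change to 0.83, still without a call (edgeR adjusted p = 0.698). Among follicles with the letter B the means were 57.9 CPM in the blastocyst group and 46.9 CPM in the cleavage group, and among those with D they were 63.0 and 36.2 CPM (n = 2 each).

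In granulosa cells the order of the fate groups was the other way round. Blastocyst-group libraries B20, B21, D24 and D27 held 19.1, 169.5, 208 and 135 CPM of TUG1, against 224, 267, 432 and 425 CPM in cleavage-group libraries B14, B23, D10 and D29. On this scale the groups do not overlap, and within the cleavage group the D libraries lie above the B libraries. Means were 133 ± 81.6 CPM in the blastocyst group and 337 ± 107 CPM in the cleavage group (SD, n = 4 each). The log2 fold change of -1.34 (SE 0.65) did not pass over all rows (edgeR quasi-likelihood adjusted p = 0.155), while the exact two-sided permutation test of this single value gave p = 0.0286, the smallest possible with 4 against 4 libraries. Of 22934 rows 21.6% were called here, 21.3% as higher and 0.349% as lower in the blastocyst group. With library totals as the only scaling the groups overlapped, since D24 (209 CPM) lay above B14 (193 CPM) and B23 (202 CPM), and the exact permutation p was 0.0857.

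The size of the granulosa difference rests partly on B20. Without it the log2 fold change was -0.86 (edgeR adjusted p = 0.0983), and with D27 left out as well, which was tried once the data had been seen, it was -0.79 (edgeR adjusted p = 0.281). Within the letter B the means were 94.3 CPM in the blastocyst group and 246 CPM in the cleavage group, and within D they were 172 and 428 CPM (n = 2 each), so both letters showed the same direction. The scaling moves this comparison as a whole: over all rows the middle log2 fold change was 0.10 under TMM, 0.48 under DESeq2 size factors and 0.70 under library totals, and relative to it TUG1 stood at -1.44, -1.63 and -1.58. Among the 12150 rows with at least 10 CPM the median was -0.58 with TMM, and 5% of them had a lower log2 fold change than TUG1. The blastocyst-group granulosa libraries also had more detected rows, at 26373 to 28629 against 18065 to 22039, and more H1FOO, at 5.80 to 22.3 CPM against 0.302 to 6.74 CPM. H1FOO itself did not pass (log2 2.69, edgeR adjusted p = 0.0877), and the part of these differences in the TUG1 values was not tested.

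In cumulus cells the fate groups lay close together. Blastocyst-group libraries 9, 10, 11 and 12 held 126, 139, 143 and 135 CPM of TUG1, against 155, 162, 173 and 141 CPM in cleavage-group libraries 5, 6, 7 and 8. A single cleavage-group library, 8, lies within the range of the blastocyst group. Means were 136 ± 7.38 CPM in the blastocyst group and 158 ± 13.4 CPM in the cleavage group (SD, n = 4 each), the tightest spread of the 3 sample types. The log2 fold change of -0.22 (SE 0.07) did not pass (edgeR quasi-likelihood adjusted p = 0.230; exact two-sided permutation p = 0.0571). Here edgeR called 0 of 15410 rows (0%), with 2249 at an unadjusted p under 0.05, TUG1 among them (edgeR unadjusted p = 0.0116), and the DESeq2 Wald test called 159, without TUG1 (adjusted p = 0.150).

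The fate difference of TUG1 thus had opposite signs in ooplasm and in granulosa cells, and this was tested directly. The log2 fate difference in granulosa cells minus that in biopsies was -2.09 (SE 0.70) and missed the threshold (edgeR interaction term, adjusted p = 0.0719), where 6.9% of 28229 rows were called. It passed with DESeq2 size factors in edgeR (adjusted p = 0.0446) and with the DESeq2 Wald test (adjusted p = 0.0175). It did not pass with library totals (edgeR adjusted p = 0.129) or without granulosa libraries B20 and D27 (edgeR adjusted p = 0.226), where it was -1.42. The corresponding value for cumulus cells, a comparison added after seeing the data, was -0.78 (SE 0.30, edgeR adjusted p = 0.560), where 0.013% of 23010 rows were called. These 2 comparisons share the fate biopsies. In the granulosa comparison the median over all 28229 rows was 0.15, and 5.17% of rows had a lower difference than TUG1. Among the 11919 rows with at least 10 CPM the median was -0.52, of the same sign as TUG1, and 3.48% lay lower than TUG1.

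Follicle by follicle, the ratio of TUG1 in the biopsy to TUG1 in the granulosa cells of the same follicle shows the same pattern, with CPM now scaled by TMM over all 32 libraries. The ratio was 3.89, 0.481, 0.492 and 0.730 in blastocyst-group follicles B20, B21, D24 and D27, against 0.400, 0.203, 0.143 and 0.106 in cleavage-group follicles B14, B23, D10 and D29. The 2 groups do not overlap, and B20 is the only follicle in which the biopsy stood higher. The difference in mean log2 ratio was 2.27 (exact two-sided permutation p = 0.0286, the smallest possible). It was 1.57 without follicle B20 (exact permutation p = 0.0571, the smallest possible with 3 against 4), and with library totals the groups overlapped (difference 1.77, exact p = 0.0857). This is another view of the interaction above on the same libraries and was looked at after the values were known.

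**Figure D2:**
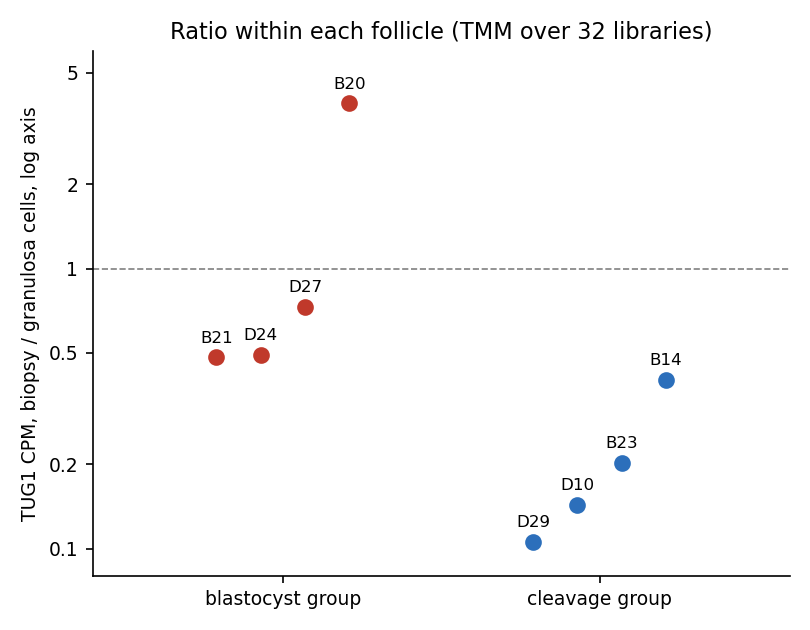
Ratio of TUG1 CPM in the ooplasm biopsy to that in granulosa cells of the same follicle (log axis, TMM over 32 libraries), 1 point per follicle, with the blastocyst group in red, the cleavage group in blue and the dashed line at equal levels. Blastocyst-group follicles span 0.481 to 3.89 and cleavage-group follicles 0.106 to 0.400.

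Taking both fates together, TUG1 was lower in the fate biopsy libraries than in those of both somatic cell types. Each of these sample types came in its own count table. Cumulus libraries held 7964591 to 9592127 counts, fate biopsies 16804281 to 22557007 and granulosa libraries 9875705 to 17668550. Sample type, count table and depth therefore cannot be told apart in any comparison between sample types here. Biopsies held 57.8 ± 18.1 CPM, against 171 ± 104 CPM in granulosa cells and 125 ± 13.2 CPM in cumulus cells (SD, n = 8 each, TMM over 32 libraries). The log2 fold change of biopsies against granulosa cells was -1.52 (SE 0.35, edgeR adjusted p = 0.00101), with the biopsy lower in 7 of 8 follicles. Against cumulus cells it was -1.04 (SE 0.15, edgeR adjusted p = 6.11e-06), and every biopsy, at 33.7 to 79.4 CPM, lay below every cumulus library, at 107 to 147 CPM. Differences between sample types were frequent: 58.2% of 28229 rows were called between biopsies and granulosa cells, and 84.4% of 23010 rows between biopsies and cumulus cells. Between biopsies and granulosa cells 30.9% of rows were higher and 27.3% lower in biopsies, and between biopsies and cumulus cells 50.9% were higher and 33.5% lower. Library totals turned the split of calls between biopsies and granulosa cells, at 8723 higher and 7719 lower with TMM and 7307 higher and 9818 lower with library totals. Relative to the median of all rows, TUG1 stood at -1.501 with TMM and -1.44 with library totals against granulosa cells, and at -1.87 and -1.88 against cumulus cells. With TMM, 28% of all rows had a lower log2 fold change than TUG1 against granulosa cells and 32% against cumulus cells. Among rows with at least 10 CPM these shares were 24.8% and 35.9%, and the medians were 0.25 and 0.23. Many rows therefore stood lower in biopsies than TUG1. With TMM over 32 libraries, the exact permutation test of log2 CPM against granulosa cells gave p = 0.0207 when unpaired. By sign flips within the 8 follicles the exact p was 0.0703. With library totals these exact p-values were 0.0014 and 0.0156, so the paired result depends on the scaling. Against cumulus cells the exact permutation p was 0.000155, the smallest possible, on both scales.

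Cumulus cells held a TUG1 level within the wide spread of granulosa cells. Their log2 fold change was -0.40 (SE 0.30, edgeR adjusted p = 0.242), in a comparison where 72.7% of 21929 rows were called, 26.3% as higher and 46.5% as lower in cumulus cells. Granulosa library B20 decided this: without it the value was -0.53 and passed (edgeR adjusted p = 0.00480), and without B20 and D27 it was -0.54 (edgeR adjusted p = 0.00672). The median of all rows was -0.55 with all libraries and -0.45 without B20 and D27, and relative to it TUG1 stood at 0.15 and -0.09. Among the 12174 rows with at least 10 CPM the median with all libraries was 0.03, above the -0.40 of TUG1. Of those rows 39.3% had a lower log2 fold change than TUG1.

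From highest to lowest, group means on the scale of all 32 libraries were 246 CPM in cleavage-group granulosa cells, 134 CPM in cleavage-group cumulus cells, 115 CPM in blastocyst-group cumulus cells and 102 CPM in whole oocytes. They were 96.1 CPM in blastocyst-group granulosa cells, 69.7 CPM in blastocyst-group biopsies, 45.8 CPM in cleavage-group biopsies and 41.5 CPM in matched biopsies. Only the top neighbours in this order, cleavage-group granulosa cells (166 to 324 CPM) and cleavage-group cumulus cells (120 to 147 CPM), did not overlap, and the libraries of each later group overlap those of the next. With library totals blastocyst-group granulosa cells (149 CPM) moved ahead of blastocyst-group cumulus cells (136 CPM), and whole oocytes stood at 68.6 CPM. The 8 fate biopsies carry other labels than the matched set. They held 33.7 to 79.4 CPM, below the 86.6 to 125 CPM of whole oocytes with TMM over 32 libraries, but 30.5 to 67.7 CPM against 48.0 to 81.8 CPM with library totals, where the ranges overlap. The oocytes in that description are those by which TUG1 was chosen, so it carries no test.

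**Figure D3:**
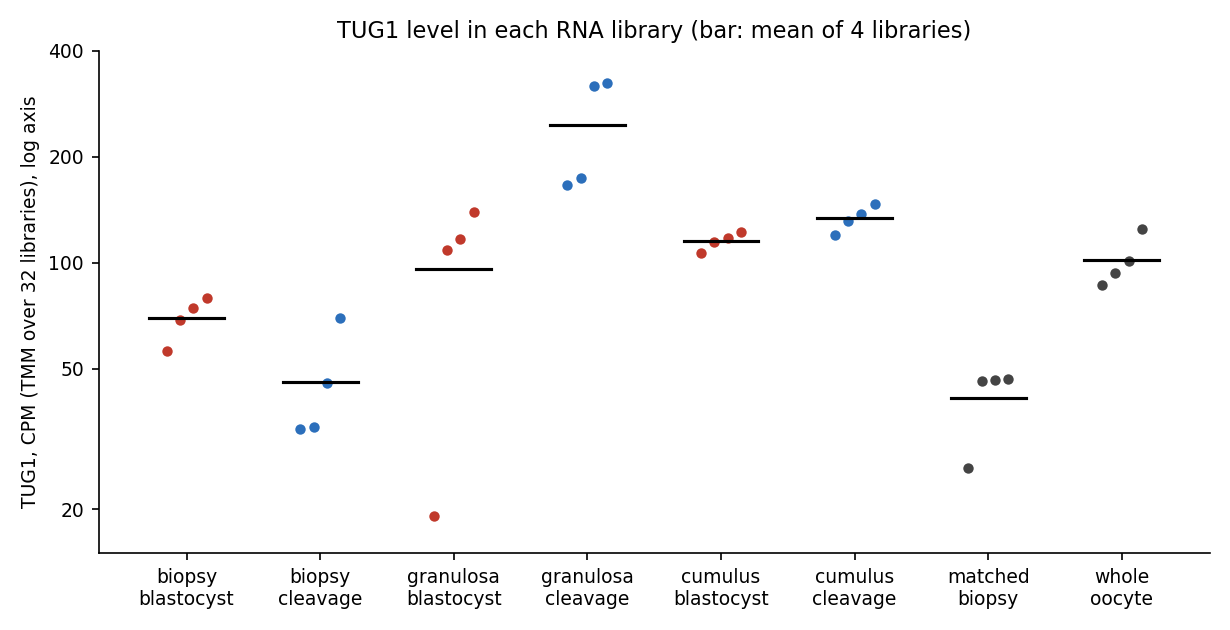
TUG1 level in each of the 32 RNA libraries in CPM (TMM over all libraries, log axis), with the blastocyst group in red, the cleavage group in blue, the matched set in grey and the bar at the mean of 4 libraries. Biopsies lie below cumulus cells in both fate groups, and blastocyst-group granulosa library B20, at 19.1 CPM, lies below all others.

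**Figure D4:**
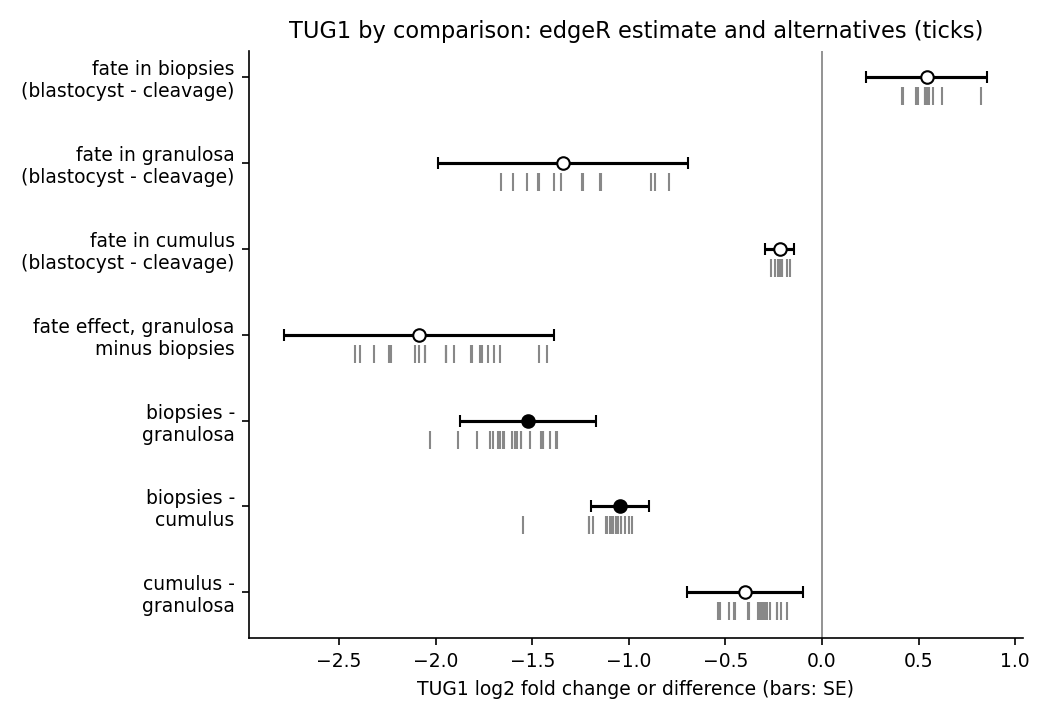
TUG1 log2 fold changes, or differences of fold changes, with their SE from edgeR (circles, filled where the adjusted p was under 0.05) and, as grey ticks, the estimate under every alternative that was run. Biopsies against granulosa and against cumulus cells, at -1.52 and -1.04, are filled, and no tick lies across 0 from its estimate.

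TUG1 can be set beside other long noncoding RNAs. Of 53 listed symbols 9 had a row, TUG1 included, and 8 are described here: XIST, which coats the inactive X chromosome, the imprinted RNAs MEG3, MEG8, MEG9, H19 and AIRN, and the snoRNA host genes SNHG3 and DANCR. In the fate comparison of biopsies 4 of the 8 were tested and none was called, with a median log2 fold change of 0.79 against -0.02 over all rows. XIST, MEG3 and MEG8 were near the floor there, with group means of 0.535 to 2.30 CPM and SE of 1.23 to 1.43. That median therefore says little. In granulosa cells, where 21.6% of all rows were called and 21.3% as higher, 6 were tested and MEG8 alone was called, as higher (log2 3.67, SE 0.998, edgeR adjusted p = 0.0264). It stood at 17.0 CPM in the blastocyst group and 1.33 CPM in the cleavage group, and it was not called without libraries B20 and D27 (log2 2.74, edgeR adjusted p = 0.236), where no row was. The median of the 6 was -1.11 against 0.10 over all rows. XIST there had a log2 fold change of -1.40 (SE 0.68, edgeR adjusted p = 0.157), close to that of TUG1. SNHG3 had one of -1.29 (SE 0.66, edgeR adjusted p = 0.175). In cumulus cells 5 were tested and none was called, with a median of -0.08 against 0.00 over all rows. For the fate difference in granulosa cells minus that in biopsies, 6 were tested and none was called, where 6.9% of all rows were. Their median was -1.32 against 0.15 over all rows. XIST, H19, SNHG3 and DANCR were negative there, like TUG1, while MEG3 and MEG8 were positive.

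The contrast between ooplasm and somatic cells was much larger for several of these RNAs than for TUG1. With TMM over all 32 libraries, XIST averaged 1.13 and 1.45 CPM in biopsies of the blastocyst and cleavage groups, against 397 and 1041 CPM in granulosa cells and 212 and 343 CPM in cumulus cells. Its log2 fold change between biopsies and granulosa cells was -9.05 (edgeR adjusted p = 5.05e-09). DANCR averaged 0.464 and 0.351 CPM in biopsies, against 19.3 and 38.7 CPM in granulosa cells, a log2 fold change of -6.14 (edgeR adjusted p = 2.7e-05). H19 was highest in cumulus cells, at 119 and 92.8 CPM in the blastocyst and cleavage groups, against 1.05 and 3.56 CPM in granulosa cells (log2 5.66 for cumulus against granulosa cells, edgeR adjusted p = 8.42e-08). SNHG3 averaged 19.5 and 13.8 CPM in biopsies, against 11.84 and 11.87 CPM in cumulus cells. It passed as higher in biopsies with TMM (log2 0.56, edgeR adjusted p = 0.0424) but not with DESeq2 size factors (0.40, edgeR adjusted p = 0.134) or library totals (0.07, edgeR adjusted p = 0.797). Relative to the median of all rows it stood at -0.27, -0.26 and -0.26. Among rows with at least 10 CPM the median with TMM was 0.23, below the 0.56 of SNHG3. Between biopsies and granulosa cells 3 of 6 tested rows were lower in biopsies, where 27.3% of all rows were lower and 30.9% higher. MEG8 joined them with DESeq2 size factors (log2 -2.05, edgeR adjusted p = 0.0394) and with library totals (log2 -2.45, edgeR adjusted p = 0.0150). Against cumulus cells 4 of 6 were lower in biopsies and SNHG3 higher, where 33.5% of all rows were lower and 50.9% higher. Between cumulus and granulosa cells 1 of 6 was higher and 3 were lower in cumulus cells, where 26.3% of all rows were higher and 46.5% lower. In the matched set SNHG3 alone of the 8 had enough counts to be fitted, at 5.28 CPM in biopsies and 5.96 CPM in oocytes (log2 -0.18, SE 0.60), against -1.19 for TUG1.

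**Figure D5:**
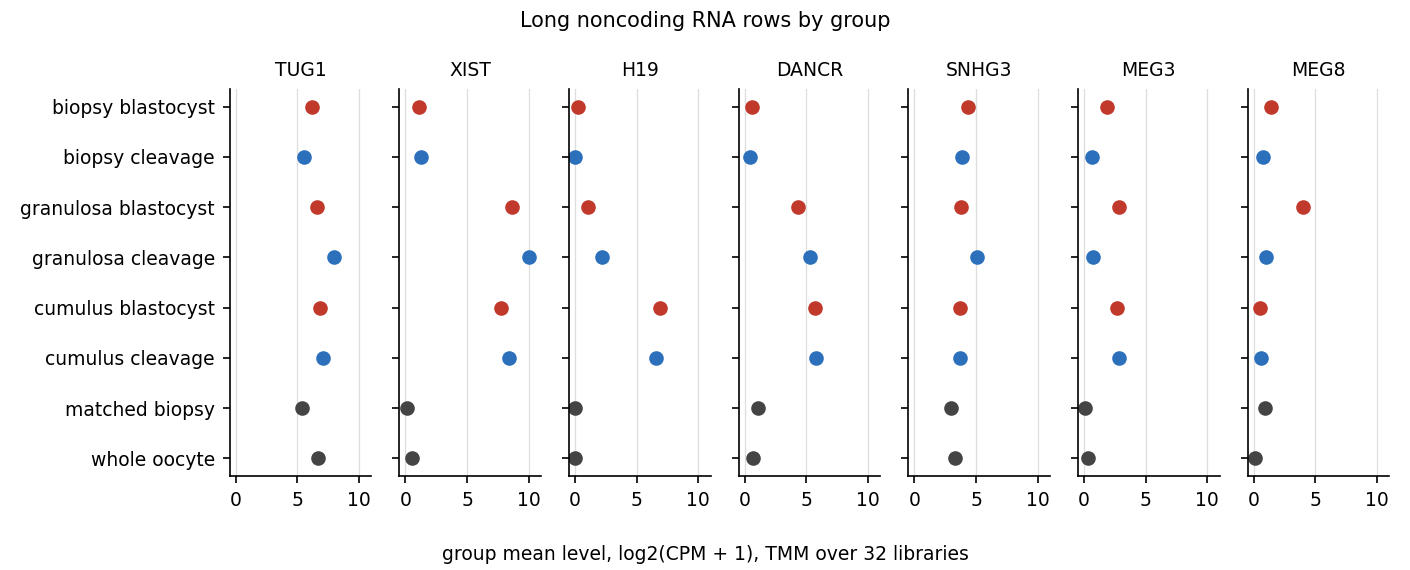
Group mean levels of TUG1 and of 6 other long noncoding RNAs as log2(CPM + 1), with TMM over 32 libraries, 1 row per group, in red for the blastocyst group, blue for the cleavage group and grey for the matched set. TUG1 varies little between rows compared with XIST, H19 and DANCR, which are near 0 in biopsies and oocytes.

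Genes beside TUG1 could be followed only in part. In the RefSeq table MORC2 lies next to it on one side, followed by LOC112442059, and LOC100848149 and the tRNA gene TRNAG-UCC lie on the other. MORC2, a chromatin-remodelling ATPase, has no row under its symbol, nor does any of 11 listed Polycomb repressive complex 2 genes. LOC112442059 had 54 counts in the 4 blastocyst-group granulosa libraries and 1 in the 4 of the cleavage group, too few for the test. TRNAG-UCC stood at 5.31 CPM in blastocyst-group and 0.831 CPM in cleavage-group granulosa cells (log2 2.68, edgeR adjusted p = 0.0824), but several tRNA genes bear this name and its row cannot be tied to the copy beside TUG1.

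Among 699 symbol rows with at least 1 CPM in at least 16 libraries, those with a pattern most like TUG1 over all 32 libraries were CYR61, a matricellular protein (Pearson r = 0.77 on log2(CPM + 1)), GTF3C6, a subunit of the general factor TFIIIC (0.77), and KARS, which charges lysine tRNA (0.75). The ubiquitin ligase MARCH6 (0.74) and the zinc finger gene ZNF484 (0.74) followed, and the median over the 699 rows was -0.04. The 32 libraries share sample types, so differences between ooplasm and somatic cells enter these values. After the mean of each of the 8 groups was subtracted, the closest rows were ZNF664, a zinc finger gene (r = 0.85), the purine synthesis enzyme ADSS (0.78), the histone gene H3F3B (0.78), the vesicle protein VAMP3 (0.77) and ZNF484 (0.76), with a median of -0.05. Without the 8 granulosa libraries these values were 0.68 for ZNF664, 0.40 for ADSS, -0.09 for H3F3B, -0.20 for VAMP3 and 0.33 for ZNF484, so all 5 were lower without them and those of H3F3B and VAMP3 were negative. Of the 32 libraries, granulosa library B20 lay farthest from its group mean, at -1.95 for TUG1, -1.43 for ZNF664 and -1.36 for ADSS. From the first list, CYR61 stood at 0.71, GTF3C6 at 0.58, KARS at 0.75 and MARCH6 at 0.18 after group means were subtracted.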

How the data were processed

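RNA of 32 libraries in 4 count tables was analysed. The 8 polar body DNA libraries and their 24 value columns, which carry numbers alone, were not used. The authors deposited whole-number counts per row, and the submitters' processing notes name Trim Galore, cutadapt, STAR and featureCounts. No version, strand setting, genome build or annotation is given in the sources used here, so reads shared with overlapping or antisense rows cannot be told apart. Rows comprise 27607 Ensembl, 22227 NONCODE and 7849 LOC identifiers and 1368 symbols. The first 3 kinds carry no symbol, so few other genes could be named. A RefSeq table (ARS-UCD2.0) served for names and neighbours only.

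Fits used only the libraries compared: filterByExpr, TMM, edgeR 4.0.16 (robust quasi-likelihood F test, R 4.3.3), Benjamini-Hochberg over all rows, with 0.05 as threshold. Alternatives were DESeq2 size factors, library totals, no filter, the DESeq2 1.42.0 Wald test, each library left out, the label letter as covariate and pairs as a block. The fits were tested on simulated data. Exact permutation tests are two-sided. Counting intervals cover counting error only. TUG1 and all lists were chosen with earlier results of these data known. Named genes follow a rule: listed noncoding RNAs past the threshold or most abundant, neighbours, and the 5 rows most like TUG1 under each measure. SNHG3 and XIST were also named after their values were seen. Other scalings of the other noncoding RNAs, and their values without granulosa libraries B20 and D27, were added after seeing the data.

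Matched numbers were taken as pairs, since same-number deviations from group means correlated at 0.194 to 0.311 in all 4 pairs, across genes. Different numbers gave -0.349 to 0.236, which overlaps. Their mean of -0.077, against 0.238 for the same number, is no separate baseline, since subtracting group means ties these means together. Follicle labels pair biopsies and granulosa cells by the series text. Their correlations were -0.0262 to 0.116, within the -0.166 to 0.152 of different follicles, so these correlations do not show the pairing. Columns of cumulus cells show a fate group without a title number, so nothing was paired there. Python 3.11.15, pandas 2.3.3 and matplotlib 3.10.9 made tables and figures.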

Additional observations from a re-analysis of the deposited data

Results flagged for a closer look

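TUG1 in matched biopsy 16 stood at 19.9 CPM, against 35.0 to 35.3 CPM in the other 3 matched biopsies, so that the gap below them took 0.977 of the range of the group. The share was 0.922 with library totals. Chance alone marks about 1 in 20 groups for such a gap, and 8 groups were looked at. The matched biopsies are among the values by which TUG1 was chosen, so this is a description only.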

How the results depend on the processing

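None of the 140 alternative estimates of TUG1 changed sign, and 136 kept their side of the threshold (for the untested matched set, moved by less than 1 SD of the pairs' log2 ratios). Of the 140, 12 refit the matched set, by whose values TUG1 was chosen, so these 12 are a description only. The fate difference in granulosa cells minus that in biopsies passed at -2.06 both with DESeq2 size factors and with the DESeq2 Wald test. Cumulus against granulosa cells passed at -0.54 without B20 and D27, and ranged from -0.53 to -0.18 when single libraries were left out, passing without B20. With the replicate block the matched set gave -1.22, biopsies against granulosa cells -1.37 (edgeR adjusted p = 0.00666) and the difference between fate effects -2.42 (edgeR adjusted p = 0.0771), so no call changed. Leaving out single libraries gave -1.26 to -1.03 in the matched set, 0.41 to 0.83 for fate in biopsies, -1.66 to -0.86 in granulosa cells and -0.26 to -0.17 in cumulus cells. It gave -2.39 to -1.67 for the difference between fate effects, -1.79 to -1.38 for biopsies against granulosa cells and -1.18 to -0.98 against cumulus cells. It was not run for the cumulus comparison of fate effects. Counts of rows called moved more: in granulosa cells 4964 were called, 2482 to 8131 without single libraries, 7149 without a filter, 11431 with the DESeq2 Wald test and 0 without B20 and D27. For the difference between fate effects 1948 were called and 443 to 4955 without single libraries. Without a filter 27 were called in biopsies and 183 in cumulus cells. The cause was not tested.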
